A study of Mus musculus with 12 samples.

Results

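The nuclear genes of oxidative phosphorylation were examined at their promoters in microglia of WT and Cx3cr1-deficient (KO) mice, in ChIP-seq of Rpb2, a subunit of RNA polymerase II, and of H3K27Ac, an acetylated histone mark of active promoters and enhancers. Members were peaks named for a gene whose symbol begins with Nduf followed by a, b, c, s or v, with Uqcr, with Cox and a digit from 4 to 8, or with Atp5, or that is Sdha, Sdhb, Sdhc or Sdhd, and whose centre lay at most 1000 bp from a start site of transcription (TSS). There were 66 such Rpb2 peaks, of 64 genes, among 10125 Rpb2 peaks near a TSS and 26706 in all. There were 67 such H3K27Ac peaks, of 66 genes, among 9905 near a TSS and 55862 in all. Together the members came from 79 genes, of which 51 had a member peak in both marks, 13 in Rpb2 alone and 15 in H3K27Ac alone.

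The mice were 2 mo old, on the C57BL/6J strain. In KO mice both copies of Cx3cr1, the fractalkine receptor of microglia, were disrupted by eGFP, and WT mice were littermates with 2 intact copies, from crosses of heterozygous parents. The deletion was in every cell of the animal from conception, so it was not restricted to microglia. Microglia were sorted as CD11b+ CD45lo cells, and each library came from a pool of 3 mice described as gender-matched. Per genotype and mark, 1 pool was labelled female and 1 male. Each comparison was therefore 2 pools against 2. Cells were fixed before sorting and then kept in buffer with sodium butyrate, an inhibitor of histone deacetylases, in both genotypes. The 4 input samples of the series were not analysed here.

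Oxidative phosphorylation takes electrons from NADH and succinate through complexes I to IV of the inner mitochondrial membrane to oxygen, and ATP synthase uses the proton gradient they build. Complex I accepts electrons from NADH and complex II from succinate, complex III passes them to cytochrome c, and complex IV reduces oxygen. Most subunits are encoded in the nucleus and several have tissue isoforms, which are found in heart and muscle, testis or lung. Promoters of these genes commonly hold CpG islands and sites for the factors NRF1, GABPA (an ETS family factor) and YY1. All subunits of complex II are nuclear, whereas the other complexes also hold subunits from mitochondrial DNA, to which the peaks here do not refer.

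By complex, the 79 genes comprised 35 complex I subunits, 7 complex I assembly factors, 3 genes of complex II, 7 of complex III, 13 of complex IV and 13 of ATP synthase. The remaining gene, Atp5s, encodes no subunit of the enzyme and was kept apart. Complex IV here included Ndufa4, a subunit of that complex despite its name, and Cox7a2l, a factor of respiratory supercomplexes.

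Some libraries stood apart from their labels or from each other. The Rpb2 library labelled WT female held 136 reads in peaks of 4 Y-linked genes, beside 0 in the library labelled KO female, 214 in the one labelled WT male and 266 in that labelled KO male, so it went against its label and is called by that label only. In Rpb2 both WT libraries thus held Y-linked reads, while the KO library labelled female held 0. By these reads the sexes may not be balanced between the genotypes in Rpb2, and the effect of this was not tested. The H3K27Ac library labelled WT female had 15.9% of its reads in peaks, against 61.1% to 65.3% in the other 3. Total reads ran from 11662185 to 44332626 for Rpb2, with the KO female library the deepest, and from 10395804 to 21134403 for H3K27Ac. Median reads per member promoter ran from 57.5 to 231 for Rpb2 and from 77 to 297 for H3K27Ac. Of 10 microglial marker genes 9 had a tested Rpb2 peak near the TSS, with a median of 341 CPM (reads scaled to library size) in WT, and all 10 had an Rpb2 peak somewhere. No marker of astrocytes (5 genes), neurons (5) or other immune cells (8) had an Rpb2 peak, whereas 2 of 6 oligodendrocyte and 2 of 4 endothelial markers did. The 1 oligodendrocyte marker with an Rpb2 peak near the TSS, Mbp, had 92.5 and 22.95 CPM in WT and 53.8 and 16.4 in KO. The 1 other immune marker with an H3K27Ac peak near the TSS, Mrc1, known from macrophages at the brain's borders, had 49.1 and 75.5 CPM in WT and 28.9 and 13.5 in KO, with an unadjusted p of 0.00543 and an adjusted p of 0.999 in edgeR's quasi-likelihood test. The part of these cells in the results was not tested. H3K27Ac peaks at any distance were named for 3 of the 5 astrocyte, 4 of the 5 neuronal and 5 of the 8 other immune markers. They were also named for all 10 microglial, 4 of the 6 oligodendrocyte and 4 of the 4 endothelial markers. Near a TSS, 0 of the 10 microglial markers had a tested H3K27Ac peak, beside 2 oligodendrocyte, 1 endothelial and 1 other immune marker. Rpb2 at Cx3cr1 itself was 481 and 505 CPM in the WT libraries and 476 and 443 CPM in the KO libraries (log2 fold change -0.10, SE 0.19). That peak lies at the start site and the labels do not say which part of the gene eGFP replaced, so it does not check the genotype.

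Promoter sequences were available from RefSeq (GRCm38.p6, the same assembly as the mm10 build of the peaks) for 69 of the 79 genes, as windows from 250 bases before to 50 bases after a start. The 4 windows below are cut 30 bases after the start and printed 5′ to 3′ on the gene's strand. Capitals mark matches to GCATGCG (the core of an NRF1 site), CCGGAAG (an ETS site, as GABPA binds) or GATGGCG (the core of a YY1 site), on either strand. Cox6a1, the isoform of a complex IV subunit used in most tissues (chr5:115348929-115349208, minus strand), and Atp5j, the F6 subunit of ATP synthase (chr16:84834947-84835226, minus strand), are shown because they were the 2 members with all 3 kinds of match. Sdhb, the iron-sulfur subunit of complex II (chr4:140961021-140961300, plus strand), is shown for its pair of NRF1 and ETS matches. Cox7a1, the heart and muscle isoform of another complex IV subunit (chr7:30183921-30184200, plus strand), is shown because it had the lowest p of all Rpb2 members and none of the 3 kinds of match.
Cox6a1: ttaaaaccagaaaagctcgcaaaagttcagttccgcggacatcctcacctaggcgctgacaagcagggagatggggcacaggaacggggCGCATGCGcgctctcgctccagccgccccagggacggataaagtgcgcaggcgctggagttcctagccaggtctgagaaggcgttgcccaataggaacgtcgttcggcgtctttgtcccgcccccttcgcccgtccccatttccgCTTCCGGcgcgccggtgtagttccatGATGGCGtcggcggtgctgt
Atp5j: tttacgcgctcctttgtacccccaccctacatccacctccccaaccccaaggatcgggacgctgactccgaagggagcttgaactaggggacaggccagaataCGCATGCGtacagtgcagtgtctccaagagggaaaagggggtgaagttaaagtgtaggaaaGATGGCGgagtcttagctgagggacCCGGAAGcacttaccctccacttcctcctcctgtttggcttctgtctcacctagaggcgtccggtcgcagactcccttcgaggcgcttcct
Sdhb: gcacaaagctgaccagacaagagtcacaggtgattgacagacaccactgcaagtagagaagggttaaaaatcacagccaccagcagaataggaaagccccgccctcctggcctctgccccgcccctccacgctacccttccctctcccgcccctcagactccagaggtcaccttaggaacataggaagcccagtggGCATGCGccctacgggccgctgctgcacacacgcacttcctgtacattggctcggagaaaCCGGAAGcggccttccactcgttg
Cox7a1: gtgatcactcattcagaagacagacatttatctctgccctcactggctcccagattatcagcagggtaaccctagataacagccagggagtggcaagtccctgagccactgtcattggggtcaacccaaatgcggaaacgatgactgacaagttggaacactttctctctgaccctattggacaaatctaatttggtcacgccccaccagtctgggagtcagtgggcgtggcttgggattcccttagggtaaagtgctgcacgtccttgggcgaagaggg
In Cox6a1 and Atp5j the NRF1 letters matched on both strands, offset by 1 base, so the 8 capitals there are 2 overlapping matches. The YY1 match of Cox6a1 begins 11 bases into the transcript and that of Atp5j 86 bases before it.

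Matches to the NRF1 core were found in 13 of the 69 member windows (18.8%), against 7.63% of the windows of 6581 genes with an Rpb2 peak near the TSS and 3.58% of all 32851 windows. The YY1 core was found in 11 members (15.9%), against 7.52% and 3.49%. Only 3 of those 11 had it wholly before the start (4.35%, against 3.75% of the genes with an Rpb2 peak). These letters contain ATG, as do those of the NRF1 core. For the NRF1 core, 10 members had the match wholly before the start (14.5%, against 6.52%). The ETS letters were found in 17 members (24.6%), close to the 21.2% of genes with an Rpb2 peak. A GC box (GGGCGG) was less frequent in members, at 43.5% against 69.4%, with a median GC content of 58.3% against 61.7%. A CCAAT box was in 42.0% of members and 38.9% of genes with an Rpb2 peak, and TATAAA was in 7.25% and 6.00%. By complex, the NRF1 core was in 4 of 13 ATP synthase windows, 2 of 4 of complex III, 3 of 31 of complex I and 1 of 12 of complex IV. In all, 32 member windows held at least 1 of the NRF1, ETS and YY1 letters (46.4%, against 32.4%). These are letter matches in a fixed window, given without a test. The member windows include genes with a member peak in H3K27Ac alone, which are not among the genes with an Rpb2 peak.

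Rpb2 peaks of the members sat close to the start site. Shares and percentiles of all peaks, here and below, count every peak near a TSS (10125 of 8350 genes in Rpb2), not 1 per gene. Of the 64 peaks used (1 per gene, the one with the most reads), 62 were centred within 200 bp of the TSS (96.9%), against 68.3% of all Rpb2 peaks near a TSS. Of the 66 peaks 59 were annotated as promoter (89.4%, against 75.4%), and most of the rest as exon or intron. Downstream of the TSS lay the centres of 48 of the 64 (75%, against 67.8%), and the median position was 44.5 bp downstream. All 66 Rpb2 peaks overlapped an H3K27Ac peak, as did 98.2% of all Rpb2 peaks near a TSS. For H3K27Ac, whose peaks were 501 to 3997 bp wide, 49 of 66 were centred within 200 bp (74.2%, against 53.7%). Closest to the limit from inside was the Rpb2 peak of Ndufa13, at -541 bp, and from outside the second Rpb2 peak of Ndufs3, 1083 bp downstream, where the WT libraries held 20 and 25 reads and the KO libraries 57 and 24. For H3K27Ac these were Atp5o, at -833 bp, and Cox6a2, 1249 bp downstream, where the WT libraries held 21 and 7 reads and the KO libraries 50 and 152.

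Rpb2 at these promoters was near the middle of all promoters with a peak. The median member stood at percentile 47.8 of all Rpb2 peaks near a TSS by WT CPM, and at percentile 50.2 by CPM per kb of peak. The median over members was 69.4 CPM in WT, and member means ran from 11.4 to 245 CPM. For H3K27Ac the median member stood at percentile 53.1 by CPM and 60.7 by CPM per kb. By complex, the median WT Rpb2 level was 419 CPM per kb for complex III, 313 for complex II, 287 for complex I, 268 for complex IV, 218 for ATP synthase and 164 for the assembly factors. The ranges of the complexes overlapped throughout, as the plot of Rpb2 by library shows.

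**Figure D1:**
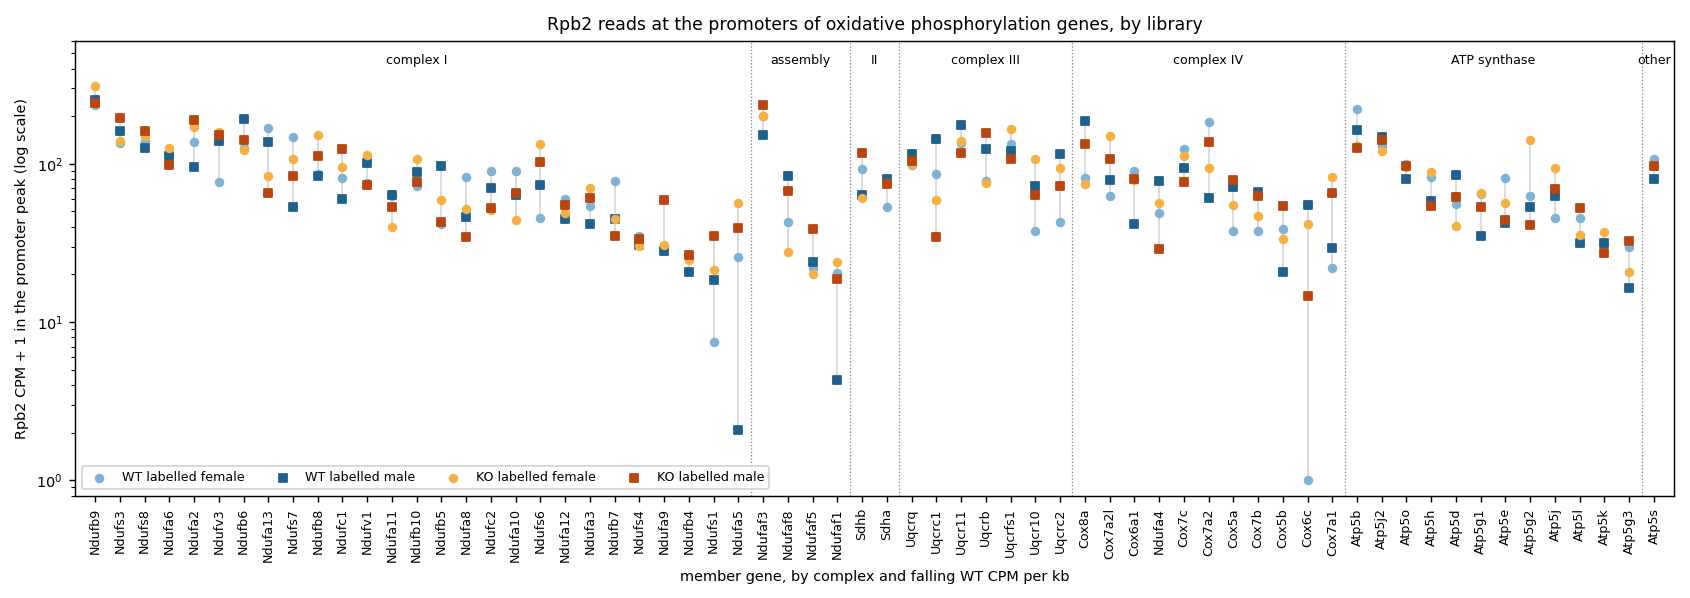
Rpb2 CPM plus 1 (log axis) in the promoter peak of each of the 64 member genes, ordered by complex and by falling WT CPM per kb. Points are the 4 libraries (circles labelled female, squares labelled male, blue WT, orange and red KO) and grey lines span them. Most genes have the 4 points interleaved, and Ndufa5, Ndufaf1 and Cox6c each have 1 WT library far below the rest.

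Within complexes the extremes by WT Rpb2 per kb were as follows. In complex I, Ndufb9, an accessory subunit of the membrane arm, was highest at 236 and 254 CPM in WT and 308 and 242 CPM in KO (female then male label, as in all pairs below). Ndufa5, an accessory subunit of the matrix arm, was lowest. Among assembly factors, Ndufaf3 was highest at 199 and 151 CPM in WT and 200 and 234 CPM in KO, and Ndufaf1 lowest at 19.5 and 3.28 in WT and 23.1 and 17.8 in KO. Those 2 assembly factors differed by far more than their pools did. Sdhb had 91.2 and 62.3 CPM in WT and 59.8 and 116 in KO, while Sdha, the flavoprotein that oxidises succinate, had 52.1 and 78.7 in WT and 74.99 and 74.01 in KO. The 2 genes of complex II overlapped in both genotypes.

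In complex III, Uqcrq was highest at 97.7 and 115 CPM in WT and 99.1 and 104 in KO. Uqcrc2, a core protein, was lowest per kb, at 41.7 and 115 in WT and 93.2 and 71.2 in KO. Uqcrfs1, the Rieske iron-sulfur protein, had 132 and 119 in WT and 165 and 106 in KO. None of these 3 separated WT from KO. In complex IV, Cox8a, the isoform used in most tissues, was highest, at 80.8 and 185 CPM in WT and 73.7 and 132 in KO, and Cox7a1 was lowest. In ATP synthase, Atp5b, the catalytic beta subunit, was highest, at 221 and 163 in WT and 129 and 125 in KO, with the KO pools below both WT pools. Atp5g3 was lowest, at 28.7 and 15.3 in WT and 19.8 and 31.3 in KO. Of the NADH-side core subunits of complex I, Ndufv1, which binds NADH, had 74.2 and 101 in WT and 112 and 72.6 in KO. The peak named for Ndufs1, the largest iron-sulfur subunit, was low, at 6.51 and 17.5 in WT and 20.5 and 34.2 in KO, from 5 and 16 reads in WT. It was called in the KO list alone. Another Rpb2 peak centred within 1000 bp of a start of Ndufs1 was named for Eef1b2, whose divergent start lies 3 bp away. The reads of that other peak are not in these values.

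The extremes by H3K27Ac came from a partly different set of genes, so the orders of the marks cannot be compared throughout. Of the genes named here, Ndufb2, Ndufa1, Ndufaf7, Ndufaf4, Cox6b2, Atp5c1 and Sdhd had no Rpb2 member peak. Of those named above, Ndufb9, Ndufa5, Ndufaf3, Sdha and Sdhb had no H3K27Ac member peak. By H3K27Ac per kb the highest complex I member was Ndufb2, an accessory subunit. The lowest was Ndufa1, at 7.27 and 16.8 CPM in WT and 19.1 and 27.04 in KO. Among assembly factors Ndufaf7 was highest, at 158 and 221 in WT and 177 and 213 in KO, and Ndufaf4 lowest, at 17.3 and 0 in WT and 12.0 and 17.3 in KO. Uqcrc2, lowest of complex III by Rpb2 per kb, was highest by H3K27Ac per kb, at 93.6 and 93.5 in WT and 75.8 and 41.9 in KO. Uqcrb, a small subunit of complex III at the quinone site, was lowest. Cox8a again led complex IV, at 104 and 123 in WT and 105 and 137 in KO. Cox6b2, a testis isoform, was lowest, at 9.08 and 0 in WT and 3.43 and 9.74 in KO. In ATP synthase, Atp5c1, the gamma subunit, was highest, at 207 and 116 in WT and 117 and 135 in KO, and Atp5k, the e subunit, lowest, at 20.0 and 5.81 in WT and 24.3 and 26.0 in KO. Sdhd, a membrane anchor of complex II, was the only member of that complex, at 114 and 95.8 in WT and 98.3 and 93.6 in KO. Across the 51 genes with both marks, WT levels of Rpb2 and H3K27Ac were correlated with a Spearman rho of 0.52, beside 0.55 over 6680 genes with both. This is across genes, which are not independent replicates and share library depth.

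**Figure D2:**
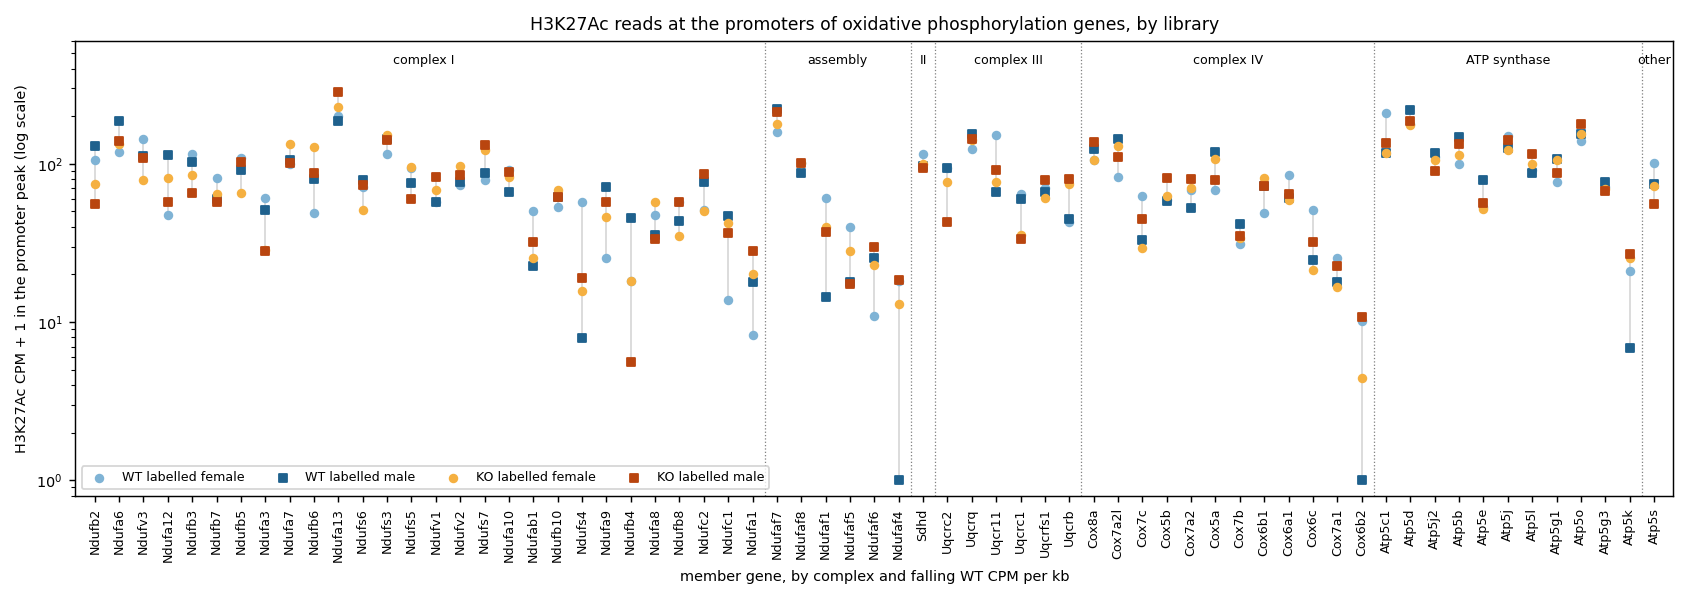
H3K27Ac CPM plus 1 (log axis) in the promoter peak of 65 of the 66 member genes, ordered by complex and by falling WT CPM per kb, with libraries marked as circles (labelled female) and squares (labelled male), blue for WT and orange and red for KO. Ndufaf4 and Cox6b2 have 1 WT library at 0 CPM, drawn at 1 on this axis.

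Peak names also decided which genes were members. Each peak was assigned to its nearest TSS, and promoters shared head to head with another gene can be credited to the neighbour. Of 78 member genes found in GENCODE vM21, 20 had the start of a divergent protein-coding gene within 1000 bp upstream (25.6%), at a median gap of 83.5 bp, against 12.2% of 10332 protein-coding genes with a peak near the TSS. These were described without a test. Among them were Ndufs6 with Mrpl36, Sdha with Ccdc127, Ndufa7 with Rps28, and Atp5j with Gabpa, which encodes the ETS factor GABPA itself.

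Of 96 protein-coding genes whose RefSeq symbols fit the rule, 95 were found in GENCODE. For Rpb2, 63 of them had a member peak, a further 14 had another peak over their TSS or centred within 1000 bp of it, and 18 had neither. For H3K27Ac the counts were 65, 23 and 7. All 13 genes with a member peak in Rpb2 alone had an H3K27Ac peak over their own TSS. In the other direction, 6 of the 15 genes with a member peak in H3K27Ac alone had an Rpb2 peak at their own start under another name. A member peak in 1 mark alone thus did not mean that the other mark was without a peak there.

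Several subunits, Cox4i1 and Atp5a1 among them, had peaks under another name. The H3K27Ac peak over Cox4i1, a complex IV isoform used in most tissues, was named for Gm27021, and the Rpb2 peak beside it for Emc8. That Rpb2 peak had 53.4 and 82.0 CPM in WT and 104 and 104 in KO, with WT and KO not overlapping. The peaks over Atp5a1, the alpha subunit of ATP synthase, were named for Haus1, with 262 and 319 Rpb2 CPM in WT and 257 and 243 in KO, and 77.2 and 94.7 H3K27Ac CPM in WT and 109 and 110 in KO. The Rpb2 peak near Uqcrh, the hinge protein of complex III, was named for Lrrc41 and had 236 and 234 CPM in WT and 126 and 147 in KO. It had the lowest unadjusted p of the 14 (log2 fold change -0.79, SE 0.27), with an adjusted p of 0.301 in edgeR's quasi-likelihood test. At a shared promoter reads cannot be divided between the pair of genes. Of these 14 Rpb2 and the 21 H3K27Ac peaks of this kind that were tested, 0 passed an adjusted p of 0.05 and 1 in each mark had an unadjusted p under 0.05, beside 10.6% of all Rpb2 and 3.88% of all H3K27Ac peaks. For H3K27Ac that was the peak at Atp5mpl, a small ATP synthase subunit whose older symbol kept it out of the rule, with 89.0 and 95.8 CPM in WT and 49.0 and 59.8 in KO (fold change on the log2 scale -0.77, SE 0.33).

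**Figure D3:**
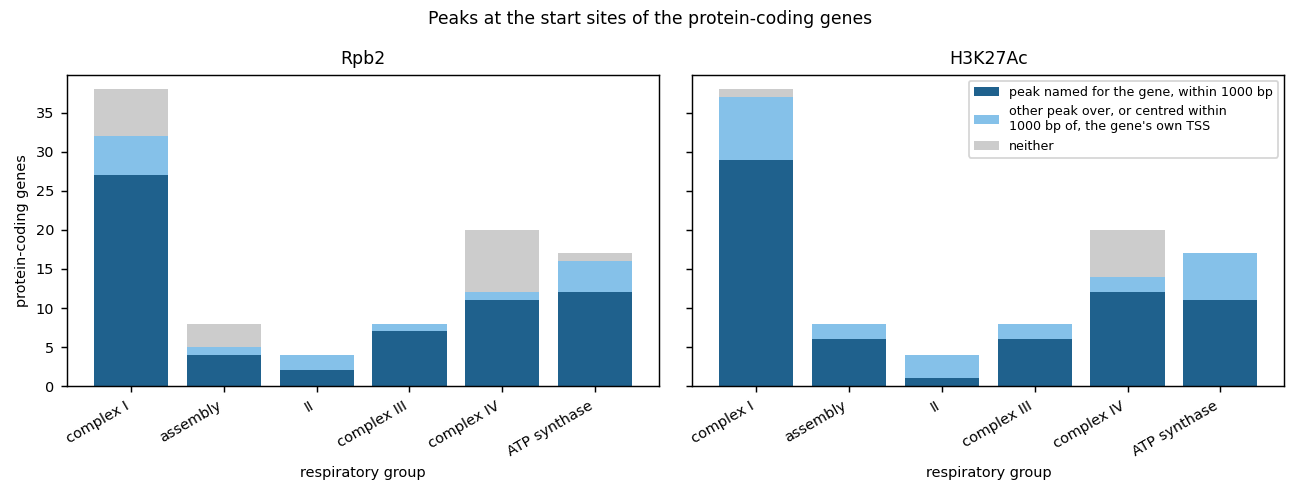
Number of protein-coding genes (vertical axis) of each respiratory group with a peak named for the gene within 1000 bp, with another peak over its TSS or centred within 1000 bp of it, or with neither, for Rpb2 (left) and H3K27Ac (right). For H3K27Ac, 6 of the 7 genes with neither are in complex IV.

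The genes without either mark were mainly tissue isoforms. The 7 genes with no peak of either mark at their start were Cox4i2, known from lung, Cox6a2 and Cox8b, known from heart and muscle, Cox7b2 and Cox8c, known from testis, Ndufa4l2, a paralogue of Ndufa4 induced by hypoxia, and Ndufb4c. Their partners had peaks: Cox4i1 as above, Cox6a1 with 88.6 and 40.4 Rpb2 CPM in WT and 77.6 and 79.7 in KO, Cox8a, and Ndufa4 with 48.2 and 76.5 in WT and 55.5 and 27.8 in KO. Cox7b had 36.5 and 65.6 Rpb2 CPM in WT and 45.9 and 61.2 in KO. Cox6b2 had 1 small H3K27Ac peak, centred 300 bp downstream, and no Rpb2 peak, while its partner Cox6b1 had 48.1 and 71.4 H3K27Ac CPM in WT and 80.9 and 71.4 in KO and no Rpb2 peak either. Cox7a1 was the exception among isoforms of heart and muscle, with member peaks of both marks. Both of its peaks were called in the KO list alone, so no Cox7a1 peak was called in WT. The WT libraries held 16 and 26 reads there in Rpb2 and 27 and 29 in H3K27Ac. Other genes with H3K27Ac and no Rpb2 peak at the start included Ndufv2, Ndufa1, Ndufb2, Ndufab1, Ndufaf2, Ndufaf4, Ndufaf6 and Atp5md. Since Ndufv2 is a core subunit of complex I, no peak in the list means that no Rpb2 peak was called there, not that polymerase was absent.

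Cox6c, a complex IV subunit with no isoform, had 0 reads in the Rpb2 library labelled WT female, which allows up to 3 reads, beside 49 in the other WT library and 123 and 19 in KO. Its WT pools therefore spanned its KO pools. Atp5g1, Atp5g2 and Atp5g3, which encode the same mature c subunit, all had Rpb2 member peaks. Atp5g1 had 63.8 and 33.9 CPM in WT and 64.7 and 52.7 in KO at its main peak, and Atp5g2 had 61.2 and 52.5 in WT and 141 and 39.9 in KO. Per kb the WT order was 233 CPM for Atp5g1, 178 for Atp5g2 and 82.0 for Atp5g3, and the pools of Atp5g1 and Atp5g2 overlapped.

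Atp5g1 and Atp5j had 2 member peaks in Rpb2, and Ndufb4 had 2 in H3K27Ac. The second Rpb2 peak of Atp5g1, at -465 bp, had 26.1 and 32.8 CPM in WT and 33.4 and 39.1 in KO. Atp5j had its main Rpb2 peak at chr16:84834689-84834994, 135 bp downstream of the start nearest to it, with 44.3 and 61.2 CPM in WT and 93.5 and 68.3 in KO. A second peak of Atp5j, at chr16:84835338-84835538 and 187 bp downstream of another start, upstream of the start of the printed window, had 52.1 and 44.8 in WT and 12.6 and 17.8 in KO. The KO pools thus lay above the WT pools at the main peak and below them at the second. The first of these was in the KO peak list alone and the second in the WT peak list alone. Ndufb4 had a second H3K27Ac peak with 15.4 and 2.32 CPM in WT and 5.15 and 14.1 in KO, and its main one had 17.3 and 44.7 in WT and 17.2 and 4.597 in KO.

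KO was then compared with WT at each member. In Rpb2, 0 of 64 member genes passed a p of 0.05 after Benjamini-Hochberg adjustment across the 10125 peaks fitted with edgeR's quasi-likelihood test, where 0% of peaks were called. At an unadjusted p under 0.05, 4 members were higher and 2 lower in KO (9.38%), against 10.6% of all peaks, of which 4.42% were higher and 6.13% lower. WT and KO pools were separate, with no overlap, at 20 members (31.2%), against 42.1% of all peaks. Of these 14 were higher in KO, where the share of all peaks was 21.7%, and 6 lower, against 20.4%. DESeq2 and the newer form of the quasi-likelihood test also called 0 members at an adjusted p of 0.05, while over all 10125 peaks they called 20 and 36. At an unadjusted p under 0.05 they had 5 and 6 members, beside 929 and 1209 of all peaks.

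Single libraries decided some calls. Without the library labelled WT female, 2 members passed an adjusted p of 0.05, Uqcrc1 and Ndufa5, beside 237 of all peaks, and without the WT male library 1 did, Cox6c, against a WT library of 0 reads. Without either KO library 0 did. As each library was left out in turn, the Rpb2 log2 fold change of Uqcrc1 ran from -0.86 without the WT male library to -1.75 without the KO female library, and its unadjusted p in edgeR's quasi-likelihood test was 0.113 without the WT male and 0.0705 without the KO male library. That of Ndufa5 ran from 0.92 without the WT male library (unadjusted p of 0.195 in the same edgeR test) to 5.34 without the library labelled WT female. Among the other low values it ran from 1.36 to 1.80 for Cox7a1, from -0.87 to -1.21 for Ndufa13, from 0.70 to 1.40 for Ndufs6 and from 0.63 to 1.10 for Cox7a2l.

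The median log2 fold change of the Rpb2 members was 0.11, beside 0.02 over all peaks, with 40 members above and 24 below 0. Above 0 were 62.5% of members and 51.6% of all peaks. The median was 0.15 for complex I, 0.33 for the 4 assembly factors, 0.19 for complex II, 0.07 for complex III, 0.06 for complex IV and 0.08 for ATP synthase. The list a peak was called in moved with this value. The 33 members called in both genotypes' lists had a median of 0.05, beside -0.06 over all such peaks, and the 29 called in the KO list alone had 0.28, beside 0.33. Peaks of the KO list alone were taken up because they were called in KO, so their direction is partly set by how they were chosen, and the deepest library was a KO library. The spread between pools of the members' median level had an SD of 0.10 on the log2 scale.

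In H3K27Ac, 0 of 66 member genes passed an adjusted p of 0.05 in the same test over 9904 peaks, where 0% were called. At an unadjusted p under 0.05, 2 members were higher and 3 lower in KO (7.58%), against 3.88% of all peaks, or 1.62% higher and 2.26% lower. DESeq2 and the newer quasi-likelihood method called 0, with 7 and 5 members at an unadjusted p under 0.05, beside 810 and 486 of the 9904 peaks. Pools did not overlap at 22 members (33.3%), 12 higher and 10 lower, against 31.6% of all peaks, or 16.4% higher and 15.2% lower. The median log2 fold change was 0.0099, beside -0.0036 over all peaks, with 33 members above and 33 below 0. It ranged from -0.17 in complex III to 0.08 in the assembly factors. Without the WT female library, which had few of its reads in peaks, 0 members passed and the median was 0.04.

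**Figure D4:**
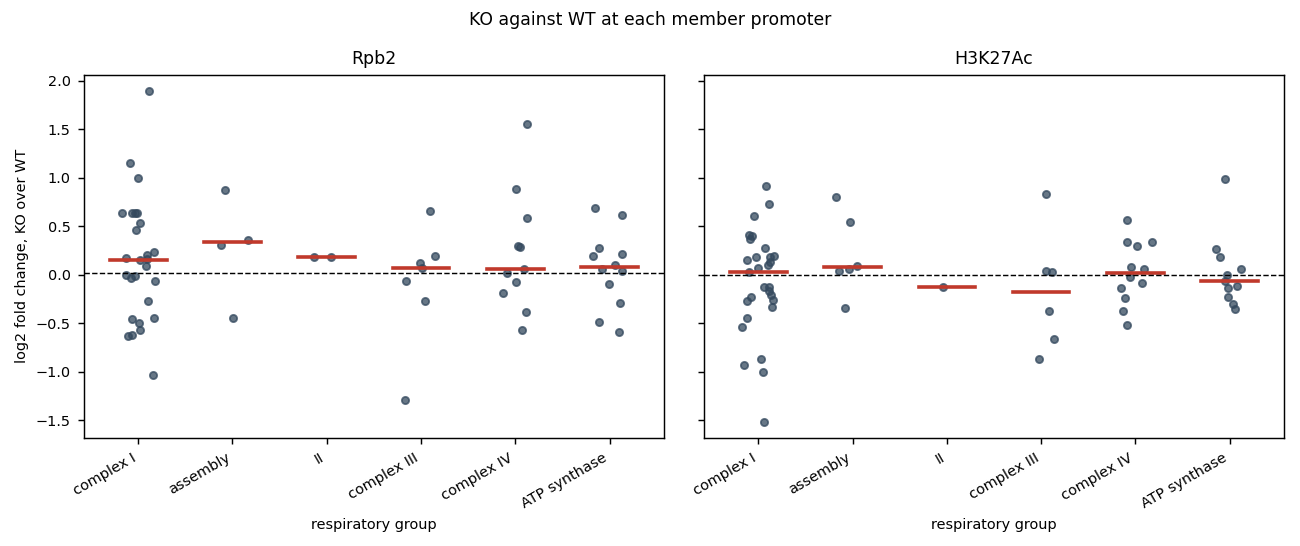
Log2 fold change of KO over WT (vertical axis) at each member promoter, by respiratory group, for Rpb2 (left) and H3K27Ac (right). Red bars are group medians and the dashed line is the median over all peaks tested. The medians of the complexes and assembly factors run from 0.06 to 0.33 in Rpb2 and from -0.17 to 0.08 in H3K27Ac, while single genes spread from -1.29 to 1.90 in Rpb2 and from -1.51 to 0.99 in H3K27Ac.

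The 6 members with the lowest p in each mark are given next, though none passed adjustment. Cox7a1 had 20.8 and 28.4 Rpb2 CPM in WT and 81.3 and 64.0 in KO, in a peak at chr7:30183886-30184198 that covers most of the Cox7a1 window printed above. Both KO pools lay above both WT pools (log2 fold change 1.56, SE 0.53), and the adjusted p was 0.288 in edgeR's quasi-likelihood test. Its H3K27Ac peak had 24.5 and 16.8 CPM in WT and 15.7 and 21.6 in KO, which overlapped. Ndufs6, an accessory subunit added late in complex I assembly, had 44.3 and 72.1 Rpb2 CPM in WT and 133 and 101 in KO at chr13:73328293-73328529 (log2 fold change 1.003, SE 0.40). The peak lay within Ndufs6, downstream of its start and on the far side of it from the divergent gene Mrpl36. Its H3K27Ac had 69.9 and 77.8 in WT and 50.3 and 72.2 in KO.

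Cox7a2l had 61.2 and 77.6 Rpb2 CPM in WT and 149 and 107 in KO at chr17:83514193-83514389 (log2 fold change 0.88, SE 0.38). Its H3K27Ac pools overlapped, at 81.8 and 143 in WT and 128 and 109 in KO. The ubiquitous isoform Cox7a2 had 182 and 60.1 Rpb2 CPM in WT and 93.5 and 137 in KO, so the 3 genes of this family did not share a pattern. Ndufa5 had 24.7 and 1.09 CPM in WT and 55.2 and 38.4 in KO at chr6:24527637-24527880, with both KO pools above both WT pools (fold change on the log2 scale 1.90, SE 0.83). The WT male value rests on 1 read, and the KO mean was 42.8 times that value, with a 95% exact Poisson interval of 7.69 to 1691 for that read alone. All 4 of these peaks were called in the KO list alone.

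The other 2 of the 6, Ndufa13 and Uqcrc1, were lower in KO. Ndufa13, an accessory subunit of complex I also known as GRIM-19, had 167 and 137 CPM in WT and 82.9 and 64.8 in KO at chr8:69902913-69903286, in a peak of the WT list alone (log2 fold change -1.03, SE 0.35). That peak is centred at -541 bp, and no Rpb2 peak covered the start of Ndufa13. Another Rpb2 peak centred within 1000 bp of a start of Ndufa13 was named for Tssk6, and its reads are not in these values. The H3K27Ac pools of Ndufa13 were higher in KO, at 200 and 186 in WT and 228 and 284 in KO, with an unadjusted p of 0.133 in edgeR's quasi-likelihood test. Uqcrc1, a core protein of complex III, had 84.7 and 142 Rpb2 CPM in WT and 58.5 and 33.4 in KO at chr9:108936602-108936846, in a peak called in both lists (log2 fold change -1.29, SE 0.44). The adjusted p was 0.291 for Ndufa13 and 0.290 for Uqcrc1 in edgeR's quasi-likelihood test.

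Uqcrc1 was also among the 6 lowest in H3K27Ac. There it had 63.6 and 59.2 CPM in WT and 34.3 and 32.7 in KO at chr9:108936249-108937693, with the KO pools below both WT pools (log2 fold change -0.87, SE 0.40). It was the 1 gene in the lowest 6 of both marks, and the adjusted p for H3K27Ac was 0.999 in edgeR's quasi-likelihood test. Cyc1, which encodes cytochrome c1 of the same complex and lies outside the rule, had 70.3 and 120 Rpb2 CPM in WT and 60.8 and 56.2 in KO, and 54.5 and 40.7 H3K27Ac CPM in WT and 35.8 and 38.7 in KO. Its KO pools were below its WT pools in both marks, with log2 fold changes of -0.71 (SE 0.42) and -0.35 (SE 0.43). The unadjusted p for Cyc1 was 0.110 in Rpb2 and 0.429 in H3K27Ac in edgeR's quasi-likelihood test. Such lower KO pools were found at 20.4% of all Rpb2 and 15.2% of all H3K27Ac peaks. The other core protein gene, Uqcrc2, had overlapping pools in Rpb2 and lower KO pools in H3K27Ac. Of the complex III members, 4 were above and 3 below 0 in Rpb2, and 3 above and 3 below in H3K27Ac.

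**Figure D5:**
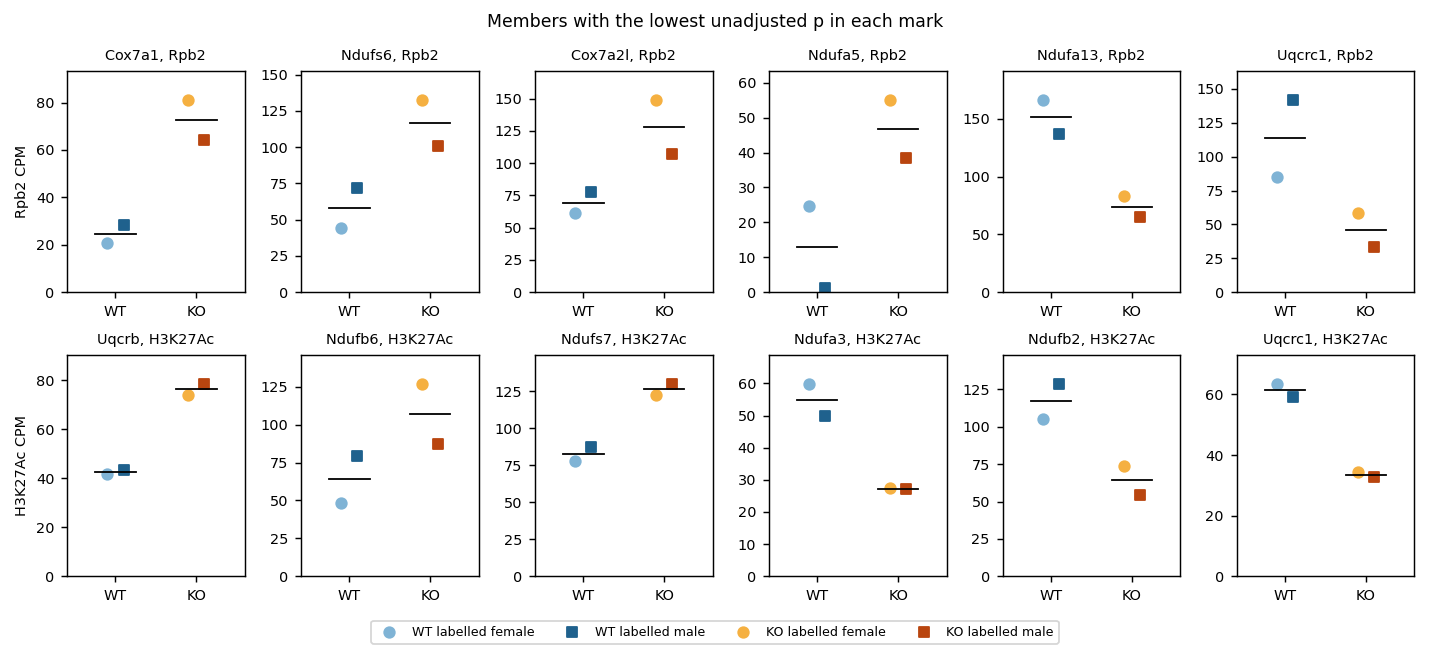
CPM per library (vertical axis, from 0) at the 6 members with the lowest unadjusted p in Rpb2 (top) and in H3K27Ac (bottom), for WT and KO. Circles are libraries labelled female, squares labelled male, and lines the mean of 2 pools. The panels were picked for their low p, which favours separate pools, and WT and KO points do not overlap in any of them. Over all peaks, pools did not overlap at 42.1% in Rpb2 and 31.6% in H3K27Ac. Uqcrc1 lies lower in KO in both rows.

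The other low values in H3K27Ac were split in direction. Uqcrb had 41.8 and 43.6 CPM in WT and 74.1 and 78.7 in KO (fold change on the log2 scale 0.84, SE 0.36), while its Rpb2 overlapped at 76.9 and 122 in WT and 74.7 and 156 in KO. Ndufb6 had 48.1 and 79.6 in WT and 127 and 87.1 in KO (0.73, SE 0.34 on the log2 scale), and Ndufs7, a core subunit next to the quinone site, had 78.1 and 87.1 in WT and 122 and 130 in KO (0.61, SE 0.29). Ndufb2 was lower, at 105 and 129 in WT and 73.8 and 54.6 in KO (-0.87, SE 0.31). Ndufa3 was lower too, at 59.95 and 49.96 in WT and 27.5 and 27.04 in KO (-1.01, SE 0.44). Its Rpb2 pools lay the other way, at 53.4 and 40.4 in WT and 69.4 and 59.8 in KO.

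No shared movement of the marks was seen, among members or over all genes, at the precision of these values. The median SE of the members' log2 fold changes was 0.45 in Rpb2 and 0.35 in H3K27Ac. Over the 51 genes with both, log2 fold changes in Rpb2 and H3K27Ac had a Spearman rho of -0.02, beside 0.03 over 6680 genes, as a description across genes. Of the 51, 14 were above 0 in both marks, 12 below 0 in both and 25 opposite. KO and WT libraries were also set side by side by sex label. The labels do not tie them into pairs, and the Rpb2 library labelled WT female went against its label. The log2 ratio of KO to WT had the same sign under both labels for 31 of 64 Rpb2 members (48.4%, against 56.7% of all peaks). For H3K27Ac it did for 31 of 66 members (47.0%, against 46.4%).

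Genes around the respiratory chain gave no adjusted call either. Of 41 other assembly factors, 35 had an Rpb2 peak tested, with a median log2 fold change of -0.01 and 0 past either threshold. In H3K27Ac 32 were tested, with 2 higher and 2 lower at an unadjusted p under 0.05, against 1.62% and 2.26% of all peaks. Of 17 genes of the TCA cycle and pyruvate dehydrogenase, 16 were tested in each mark, with medians of -0.12 and 0.03 and none past an unadjusted 0.05. Of 17 glycolysis genes 13 were tested in Rpb2, with a median of 0.16. Eno1, with 147 and 150 CPM in WT and 259 and 236 in KO, and Gapdh, with 573 and 432 in WT and 608 and 739 in KO, were higher at an unadjusted p under 0.05, against 4.42% of all peaks, and in H3K27Ac 0 of 12 were.

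Among 16 regulators of respiratory genes, 12 had an Rpb2 peak tested and 2 were lower in KO at an unadjusted p under 0.05, against 6.13% of all peaks. Nrf1, which encodes the factor whose letters were searched above, had 135 and 282 CPM in WT and 89.5 and 85.4 in KO (fold change on the log2 scale -1.26, SE 0.35), with an adjusted p of 0.208 in edgeR's quasi-likelihood test. Pprc1, a coactivator of the PGC-1 family, had 188 and 162 in WT and 121 and 83.3 in KO (-0.77, SE 0.33). In H3K27Ac 11 were tested and 0 passed an unadjusted 0.05, with Nrf1 at 186 and 207 in WT and 149 and 164 in KO. Members of either direction had NRF1 letters, from Atp5g2 at 0.69 to Uqcrc1 at -1.29 in Rpb2 log2 fold change, and Ndufaf4, which had them too, had no Rpb2 member peak.

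In these bulk samples, fewer cells of a kind and less signal per cell cannot be told apart. All p-values rest on the spread between 2 pools per genotype. The fit draws each peak's spread toward a trend over all peaks fitted, so they do not rest on that peak alone. An exact permutation test of 2 against 2 cannot go below 0.333.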

How the data were processed

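The series holds ChIP-seq of 8 chromatin samples (WT and KO, 2 pools each for Rpb2 and H3K27Ac) and 4 inputs. The authors aligned reads with Bowtie2 to mm10, called peaks with HOMER, kept peaks reproducible between pools, merged the peak lists of the genotypes and deposited, for each mark, a table of raw read counts per peak and library, with the nearest gene and its distance to the TSS. No columns of these tables were the authors' own comparisons.

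From the deposited counts, peaks within 1000 bp of a TSS that averaged 4 or more reads in either genotype were fitted in edgeR 4.0.16 (R 4.3.3) with TMM factors and the quasi-likelihood test of genotype, and p-values were adjusted by Benjamini-Hochberg over all peaks fitted. The filter removed 0 Rpb2 peaks and 1 H3K27Ac peak, and no member. CPM values use the same factors, so a level common to all peaks is scaled away. DESeq2 1.42.0, other scalings, filters and samples were alternatives. Single-library log2 ratios used a prior count of 2. Since the merged lists hold peaks called in 1 genotype alone, low values of the other genotype are part of how such peaks were selected.

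The members, lists and tests were chosen with earlier results of these data known. Genes named were, by rule, the highest and lowest of each complex by WT CPM per kb, the 6 lowest p in each mark, tissue isoform families, core subunits, genes with 1 mark or more than 1 peak, those at the distance limit, and regulators. Genes with peaks named for neighbours, Cyc1, Eno1, Gapdh, Atp5mpl, Uqcrh, Cox7a2 and Atp5j were named after their values were seen. Coordinates are mm10, 1-based, and 0 peaks ran past a chromosome end of the reference. Pools were independent samples. The p-values rest on the spread between pools, drawn in part from all peaks fitted, and not on a spread between single mice. With counts of reads, intervals cover counting error only. The replicate numbers of the labels follow the sex labels. Female minus male deviations of the genotypes correlated at -0.0005 in Rpb2 and 0.04 in H3K27Ac, so the numbers were not taken to pair samples. A member gene is not reported here by name, though it stays in all counts and fits.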

Additional observations from a re-analysis of the deposited data

Results flagged for a closer look

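The Rpb2 library labelled WT female held 136 reads at Y-linked genes, a signal outside the comparisons that the KO female library did not show. How much of the Rpb2 comparison rests on this library is given by the values without it.

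The median log2 ratio of KO to WT over the H3K27Ac members was -0.00755 between the pools labelled female and 0.00143 between those labelled male. The signs differ between the sexes, the difference was not tested, and both values are smaller than the SD of 0.05 between pools.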

How the results depend on the processing

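With DESeq2 size factors or the DESeq2 test, loess offsets, no read filter, at least 10 reads in every library, all peaks in the fit or the peak nearest the TSS, 0 members passed an adjusted p of 0.05 in either mark. Scaling by total reads moved the median of the members to 0.30 in Rpb2 (all peaks 0.22) and 0.75 in H3K27Ac (all peaks 0.79), so that the members moved with all peaks. It turned Ndufs7 (0.13) in Rpb2 and Cox7a1 (0.80) and Ndufs6 (0.48) in H3K27Ac. With all peaks in the fit the Rpb2 median was -0.0131, and with the newer quasi-likelihood method the H3K27Ac median was -0.0463 and Ndufs7 in Rpb2 was 0.00485. Loess offsets put Cox7a1 in H3K27Ac at 0.00485. The cause of these shifts beyond the scaling was not tested.

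With sex label as a replicate block, the counts of members past an adjusted p of 0.05 stayed at 0 in Rpb2 and 0 in H3K27Ac. Over all Rpb2 peaks the block gave 24 calls in place of 0, and Ndufs7 in Rpb2 turned to 0.0658 under the block. The labels do not tie the pools of a sex together.

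Leaving out 1 library at a time left 1 library in an arm, assumed to vary like the others. The count of Rpb2 members past an adjusted p of 0.05 ran from 0 to 2, and the median from 0.07 to 0.18. Without the library labelled WT female these were Ndufa5 (adjusted p 0.00199, on 1 WT read) and Uqcrc1 (log2 fold change -1.61, adjusted p 0.0414 in edgeR's quasi-likelihood test), beside 237 calls over 10125 peaks. Uqcrc1 was at -0.864 without the WT male library. Without the WT male library it was Cox6c, against a WT library of 0 reads, beside 105 calls. The count of Rpb2 members with an unadjusted p under 0.05 was 2 without the KO female library, beside 769 of all peaks. In H3K27Ac the count stayed at 0, the median ran from -0.0992 to 0.0428, and members at an unadjusted p under 0.05 ran from 1 without the KO male library to 11 without the WT male library, beside 85 and 1809 of all peaks. Over all H3K27Ac peaks 30 passed adjustment without the WT female and 297 without the WT male library. Log2 fold changes crossed 0 for Ndufs7 (-0.628 to 0.858), Uqcrb (-0.418 to 0.656) and Ndufb6 (-0.542 to 0.0628) in Rpb2, and for Cox7a1 (-0.394 to 0.14) and Cox7a2l (-0.281 to 0.537) in H3K27Ac. Depth limits Ndufs1, Ndufa5, Ndufaf1, Ndufb4 and Cox6c in Rpb2 and Ndufaf4 and Cox6b2 in H3K27Ac, with under 20 reads in both WT libraries or 0 to 3 in one.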
